A study of Saccharomyces cerevisiae with 164 samples.

Results

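The a-specific genes are transcribed in budding yeast of mating type a and not in cells of the opposite mating type, alpha. All 8 were chosen by gene identity, with no measured value: MFA1 (YDR461W), MFA2 (YNL145W), STE6 (YKL209C), STE2 (YFL026W), BAR1 (YIL015W), AGA2 (YGL032C), AFB1 (YLR040C) and ASG7 (YJL170C). They were 8 of the 6692 features counted in 98 full-length RNA-seq libraries and 7 of the 5013 features counted in 66 libraries of the ends of transcripts (3′-end RNA-seq), which did not list ASG7. The study asked how a substitution in histone H3 acts on transcription when it is carried on only 1 of the H3 copies of a nucleosome, and therefore used engineered H3 proteins, called H3X and H3Y, designed to pair with each other. Every strain, the controls included, was Mata and his3+ with mutant leu2, trp1 and ura3 (ura3-62) markers, and lacked both chromosomal pairs of H3 and H4 genes (delta(hht-hhf1) and delta(hht2-hhf2)). The H3X gene (hht2 with L127A and L131V) was on a TRP1 CEN plasmid and the H3Y gene (hht2 with L110I, A111W and L131I) on a LEU2 CEN plasmid, and log-phase cells in rich medium were used. A pseudo-wild-type strain carried H3X and H3Y with no further substitution, and each mutant carried its substitution on H3X, on H3Y or, in a symmetric strain, on both. The 3′-end assay covered R2K, K36Q and K37Q in sequencing batch 10 and K14R, K18R and K56R in batch 11, with 3 libraries for each of 18 mutant strains and 6 pseudo-wild-type libraries per batch. The full-length assay covered 21 mutants in batches 1 to 9, 13 of them with a symmetric strain, where mutant strains had 1 or 2 libraries and the pseudo-wild type had 5. Replicates are not stated to be separate cultures, so p-values measure the spread between these libraries, which may be technical.

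In an a cell, the general factor Mcm1 activates the a-specific genes from an upstream operator. In an alpha cell, the alpha2 protein binds beside Mcm1 at the same operator and recruits the Tup1 and Ssn6 corepressor, which keeps the genes off. The pheromone a-factor, a lipid-modified peptide, is encoded by MFA1 and MFA2 and exported by the Ste6 transporter, while Ste2 is the receptor with which an a cell senses alpha-factor. Bar1 is a secreted protease that degrades alpha-factor, Aga2 is the adhesive subunit of the a-agglutinin on the cell wall, Afb1 is a barrier protein against a-factor, and Asg7 acts on pheromone signalling in the new zygote. Lysines 14, 18 and 56 of H3 are acetylated in yeast, lysine 36 is methylated by Set2, and arginine in place of lysine cannot be acetylated.

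The stretches that hold the operators, or the site letters found, are shown because Mcm1 and alpha2 act on these genes there. The letters CNTGTAANT, for an alpha2 site, and those of the core of an Mcm1 site (CC and GG at the ends and AAT between them, with any base at the other 3 positions), were searched on both strands of the 400 bases before each coding start in the R64 (sacCer3) reference genome. The following stretches of 46 bases run 5′ to 3′ on the strand of the gene, with matches in capitals, and end between 119 and 261 bases before the coding start:
MFA1 (chrIV:1384934-1384979, plus strand): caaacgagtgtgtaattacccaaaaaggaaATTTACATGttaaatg
MFA2 (chrXIV:352155-352200, plus strand): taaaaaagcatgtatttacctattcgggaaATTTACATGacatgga
STE6 (chrXI:46470-46515, minus strand): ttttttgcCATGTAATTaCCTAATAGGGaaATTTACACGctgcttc
STE2 (chrVI:82344-82389, plus strand): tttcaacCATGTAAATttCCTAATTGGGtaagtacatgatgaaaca
BAR1 (chrIX:322070-322115, plus strand): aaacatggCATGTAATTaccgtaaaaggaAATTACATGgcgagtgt
AGA2 (chrVII:437094-437139, minus strand): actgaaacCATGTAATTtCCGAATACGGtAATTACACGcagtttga
AFB1 (chrXII:229777-229822, minus strand): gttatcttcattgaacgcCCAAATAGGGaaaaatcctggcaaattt
ASG7 (chrX:101898-101943, minus strand): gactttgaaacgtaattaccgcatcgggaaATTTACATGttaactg

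Letters of the alpha2 site were found upstream of 7 of the 8 genes, all but AFB1, and upstream of 355 of all 5985 genes searched (5.93%). Those of the Mcm1 core were found at 4 of the 8, namely STE6, STE2, AGA2 and AFB1, and at 152 of all genes (2.54%). A core within 12 bases of an alpha2 match occurred upstream of STE2, STE6 and AGA2 and of no other gene among the 5985 (0.0501%). The core letters are nearly palindromic, so that a match can be read on both strands. The Ste12 element TGAAACA, which serves the pheromone response, was present in 6 of the 8 windows, all but those of AFB1 and ASG7, and in 592 of all windows (9.89%). A match is a description of letters and does not show that a protein bound there.

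MFA1 (chromosome IV, 1385176 to 1385286, plus strand) and MFA2 (chromosome XIV, 352414 to 352530, plus strand) code for near-identical pheromones with 36 and 38 codons, and their coding ends are shown because the counting had to tell the genes apart. The last 48 bases of each coding sequence follow, with bases that are equal in both genes in capitals:
MFA1 (chrIV:1385239-1385286, plus strand): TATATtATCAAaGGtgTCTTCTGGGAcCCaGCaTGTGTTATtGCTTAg
MFA2 (chrXIV:352483-352530, plus strand): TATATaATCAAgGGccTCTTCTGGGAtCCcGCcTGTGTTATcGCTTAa
Of these 48 bases, 39 were equal, and the longest run shared by the coding sequences was 11 bases. The counted 3′-end feature of MFA1 stopped 37 bases before the end of its coding sequence, whereas that of MFA2 reached 36 bases past it, and those of STE6, STE2, BAR1, AGA2 and AFB1 also reached past theirs. The MFA1 values of the 3′-end assay therefore cover part of its transcript.

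STE6 lies on chromosome XI (42423 to 46295, minus strand) and STE2 on chromosome VI (82580 to 83875, plus strand). BAR1 lies on chromosome IX (322342 to 324105, plus strand) and AGA2 on chromosome VII (436570 to 436833, minus strand). AFB1 lies on chromosome XII (228908 to 229582, minus strand) and ASG7 on chromosome X (101150 to 101779, minus strand). All of these intervals are coding sequences, and none is on chromosome III, which holds the mating-type locus MAT and its silent copies HML and HMR.

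Library totals ranged from 1273107 to 5156160 counts in batch 10, from 750551 to 3371807 in batch 11 and from 542727 to 21573351 in the full-length assay. All 5 libraries with K56R on H3X stood apart on chromosome III, whose genes had a median log2 ratio between 0.81 and 0.93 relative to the other libraries, while the other 63 3′-end libraries lay between -0.14 and 0.23 and the other 96 full-length libraries between -0.15 and 0.23. The full-length pseudo-wild-type libraries of batches 2, 3 and 4 were closer to each other than to any other replicate (a chi-square of their counts per degree of freedom of 1.15 to 2.76, against 8.73 or more for other pairs of full-length replicates). They were counted as 1 sample in the means of levels given next.

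Levels were expressed as CPM, counts scaled to a common library size after normalisation by the trimmed mean of M values, and per kilobase of the counted feature where genes are set beside each other. In the full-length pseudo-wild type (n = 3), MFA2 had the highest level, 1408 ± 1056 CPM per kb (SD), before MFA1 with 709.8 ± 503.9 and STE2 with 512.4 ± 41.1. Levels of 206.3 ± 19.6 CPM per kb for BAR1, 168.1 ± 74.6 for AGA2 and 118.3 ± 36.8 for STE6 followed, and AFB1 with 50.8 ± 6.65 and ASG7 with 11.7 ± 6.43 were lowest. The order among MFA2, MFA1 and STE2, and of AGA2 between BAR1 and STE6, was within the spread between libraries, whereas STE2 stood above BAR1, BAR1 above STE6, and AFB1 above ASG7 by more than their SDs.

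Across all 66 3′-end libraries the 7 genes were detected throughout. MFA1 ranged from 12.8 to 51.1 CPM, MFA2 from 99.1 to 468.5 CPM and STE6 from 90.5 to 188.3 CPM. For STE2 the range was 102.4 to 327.1 CPM, for BAR1 185.6 to 509.2 CPM, for AGA2 21.5 to 76.0 CPM and for AFB1 9.47 to 92.7 CPM. STE6 had the narrowest range of the 7, about 2-fold, and AFB1 the widest.

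**Figure D1:**
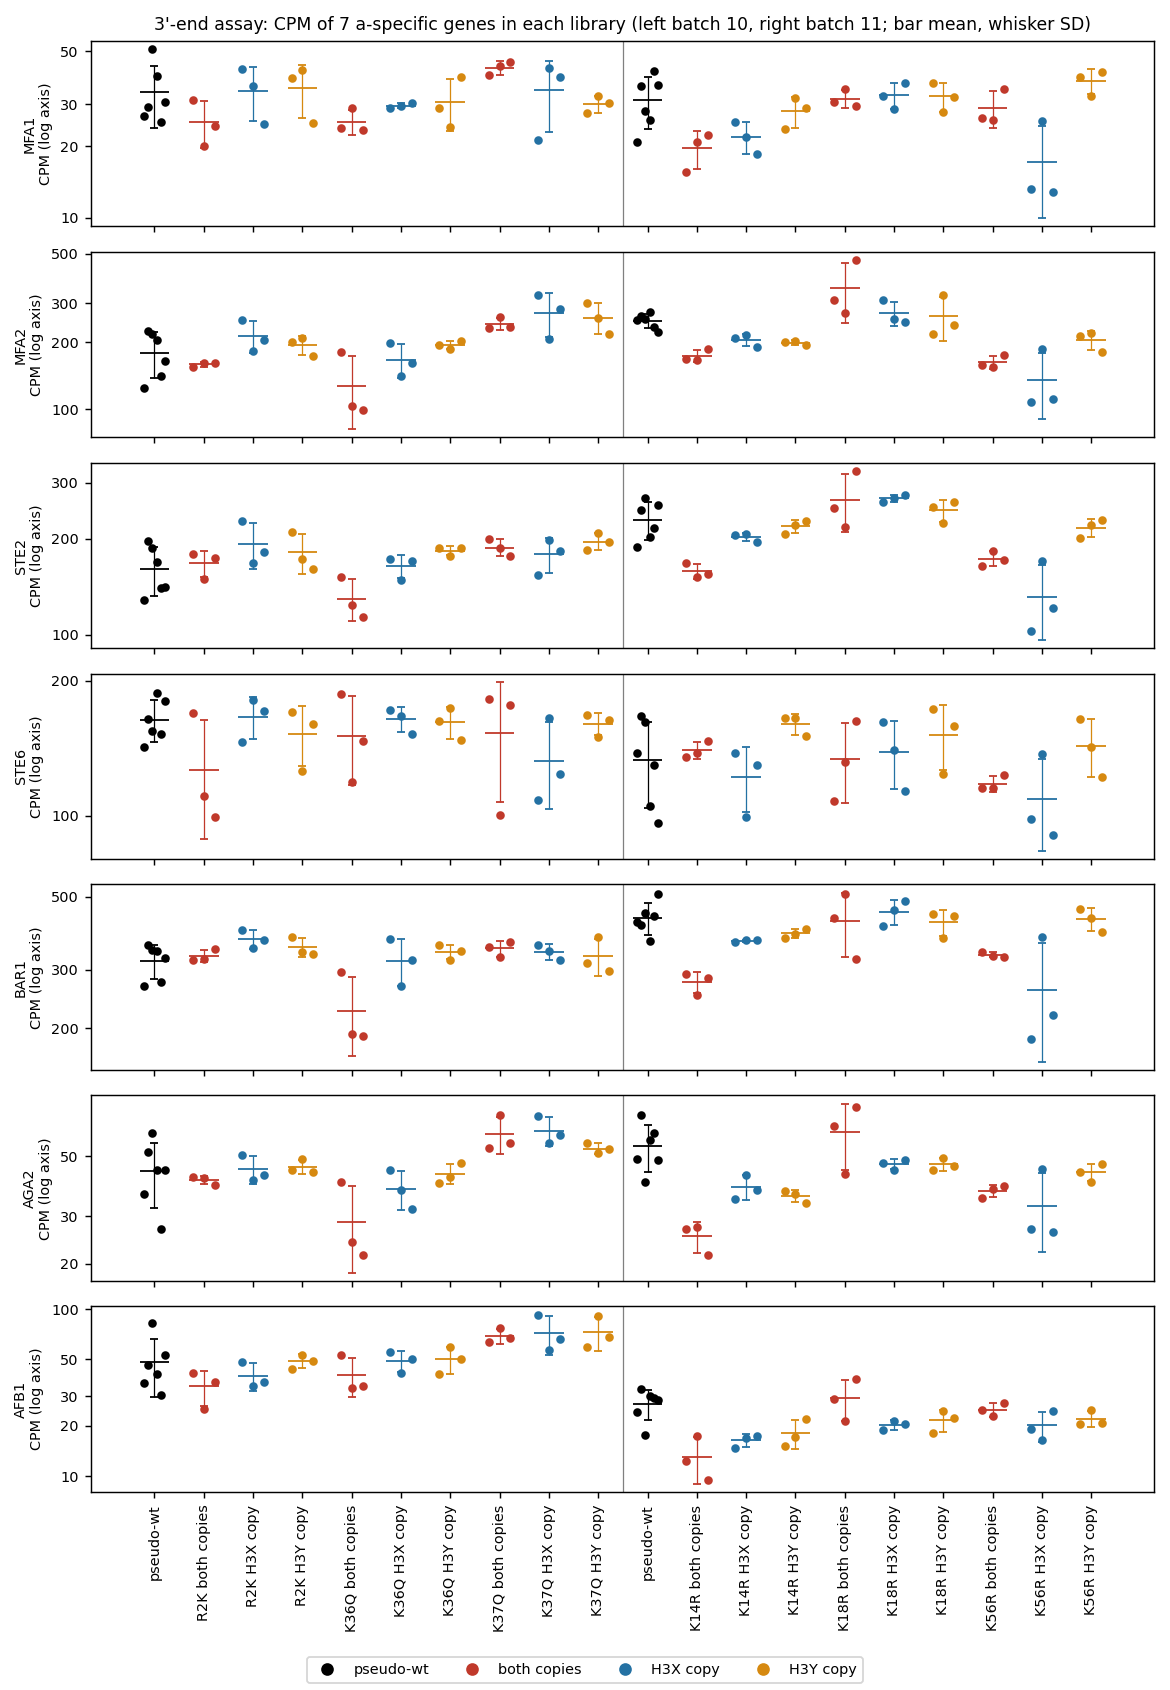
Level of each a-specific gene in every 3′-end library, in CPM on a log axis, by strain (batch 10 on the left, batch 11 on the right), with a bar for the mean and a whisker for the SD. Black points are the pseudo-wild type, red both copies mutated, blue H3X and orange H3Y; the K14R both-copies libraries of AGA2 lie between 21.5 and 27.4 CPM and all pseudo-wild-type libraries of their batch at 40.2 CPM or above.

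With K14R on both H3 copies, 6 of the 7 genes in the 3′-end assay fell relative to the pseudo-wild type and none rose (edgeR's quasi-likelihood test with Benjamini-Hochberg adjustment over 4961 genes, threshold 0.05). Of all genes tested, 15.8% fell and 20.4% rose in that comparison. The median log2 fold change of the 7 was -0.65, against 0.01 over all genes. The transporter gene STE6 was the member that did not fall. The full-length assay of the same strain did not show this pattern: 5 of the 8 log2 values there were positive and 3 negative, with a median of 0.40, as given below.

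For the pheromone gene MFA2, the K14R libraries measured 168.0, 167.4 and 186.2 CPM, against 223.5 (lowest), 253.8 (median) and 275.0 CPM (highest) in the 6 controls of batch 11. The groups did not overlap, and MFA2 fell by 0.53 on the log2 scale (SE 0.15, adjusted p = 0.00819, edgeR). The other pheromone gene, MFA1, measured 15.5, 20.9 and 22.2 CPM against 20.8, 31.9 and 41.3 CPM in the controls, with overlap at the lowest control library. MFA1 fell by 0.68 (SE 0.20, adjusted p = 0.011, edgeR), but this call was lost, at -0.54, without replicate 3 of the K14R strain.

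STE6, which exports the pheromone, measured 135.2, 137.8 and 146.8 CPM with K14R on both copies and 96.5, 133.8 and 167.3 CPM in the controls. All 3 mutant libraries lay inside the control range, at a log2 difference of 0.07 (SE 0.16, adjusted p = 0.749, edgeR). The receptor gene STE2 measured 168.3, 151.9 and 155.2 CPM against 188.5, 231.6 and 268.1 CPM. All of its mutant libraries were below all controls, and STE2 fell by 0.54 (SE 0.12, adjusted p = 0.00199, edgeR).

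The gene of the alpha-factor protease, BAR1, measured 290.7, 251.7 and 283.5 CPM with K14R on both copies against 366.5, 427.3 and 509.2 CPM in the controls. There was no overlap, and BAR1 fell by 0.65 (SE 0.14, adjusted p = 0.00153, edgeR). The agglutinin gene AGA2 measured 26.8, 27.4 and 21.5 CPM against 40.2, 53.1 and 70.8 CPM, and the barrier gene AFB1 12.2, 17.4 and 9.47 CPM against 17.7, 28.9 and 33.2 CPM. Neither overlapped, and they had the largest changes of the 7: AGA2 fell by 1.09 (SE 0.17, adjusted p = 0.000132, edgeR) and AFB1 by 1.02 (SE 0.20, adjusted p = 0.000521, edgeR).

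A trend of the counts with feature length moved with this comparison: the slope of log2 CPM on log2 length was -0.141 ± 0.023 (SD, n = 3) in the K14R symmetric strain and -0.378 ± 0.094 (n = 6) in the controls. With that slope as a covariate, 4 genes passed the test, with log2 values of -0.83 for AGA2, -0.89 for BAR1, -0.80 for MFA1 and -0.52 for STE2, while MFA2 (-0.31, adjusted p = 0.212) and AFB1 (-0.67, adjusted p = 0.0602) did not. The share of all genes called with the covariate is not given here, so this count cannot be set against a background.

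**Figure D2:**
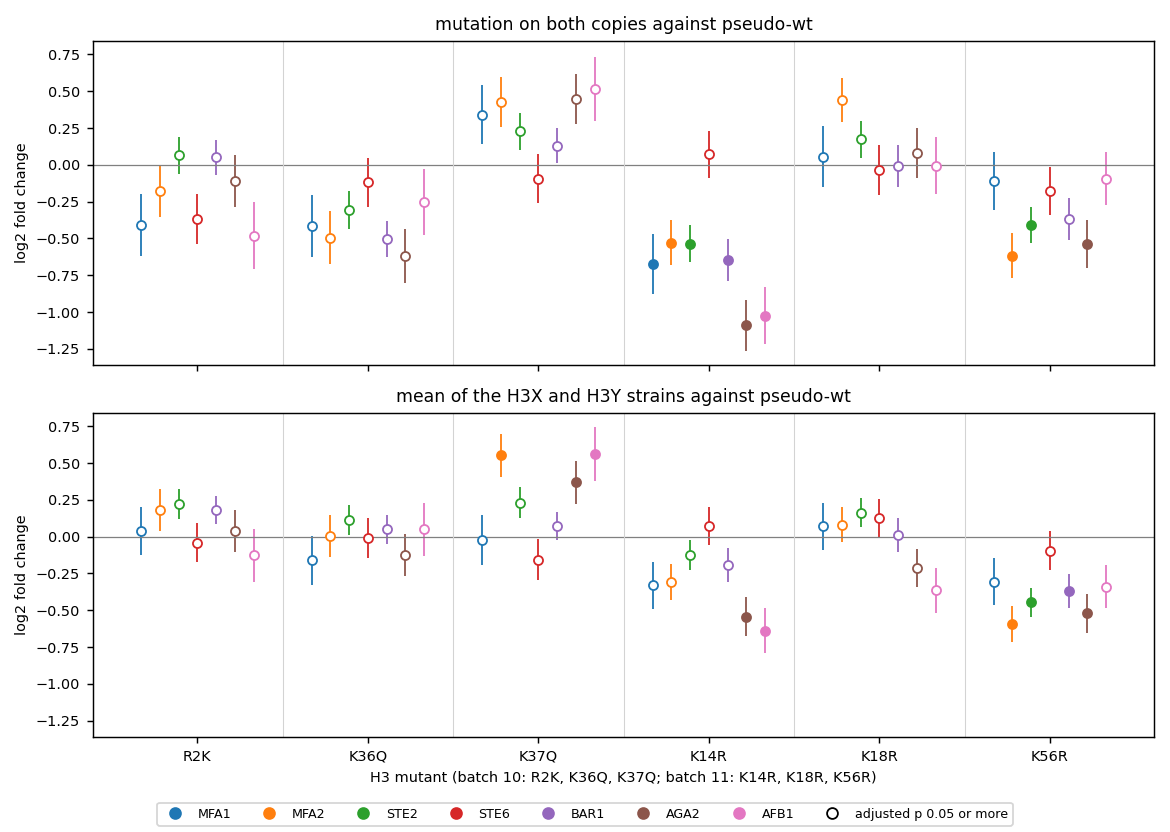
Log2 fold changes ± SE of the 7 genes in the 3′-end assay, relative to the pseudo-wild type. The top panel shows the symmetric strain and the bottom panel the mean of the H3X and H3Y strains of each mutant. Filled symbols passed an adjusted p of 0.05. For K14R on both copies 6 filled symbols lie between -0.53 and -1.09, and STE6 lies at 0.07.

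With K56R on both copies, 3 of the 7 genes fell and none rose in the 3′-end assay, where 10.5% of all genes fell and 13.4% rose. All 7 log2 fold changes were negative, with a median of -0.37 against 0.05 over all genes. In the full-length assay of the same strain 5 of the 8 log2 values were positive and 3 negative, with a median of 0.49, as given below.

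MFA2 measured 158.3, 155.0 and 176.3 CPM, all below the lowest control (223.5 CPM), and fell by 0.62 (SE 0.15, adjusted p = 0.00502, edgeR). STE2 measured 164.7, 183.1 and 172.1 CPM, also below every control (188.5 CPM or more), and fell by 0.41 (SE 0.12, adjusted p = 0.0192, edgeR). AGA2 measured 35.0, 37.7 and 38.6 CPM, again below every control (40.2 CPM or more), and fell by 0.54 (SE 0.17, adjusted p = 0.0205, edgeR).

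BAR1 measured 340.9, 331.6 and 328.9 CPM against 366.5 CPM or more in the controls, but its log2 value of -0.37 missed the threshold (SE 0.14, adjusted p = 0.0574, edgeR). DESeq2 called BAR1 at -0.40 (adjusted p = 0.0329). MFA1 (-0.11), STE6 (-0.18) and AFB1 (-0.09) overlapped the controls and did not pass. The calls of STE2 and AGA2 were lost without replicate 3 of the symmetric strain (-0.39 and -0.51) or without replicate 5 (-0.42 and -0.59), and that of AGA2 also with the length slope as a covariate (-0.33). Replicates 3 and 4 of the strain were closer to each other than any other 3′-end pair, and summing them into 1 sample left the 3 calls in place.

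Strains with a single K56R copy differed by which H3 carried it, and the H3X strain is also the one that stood apart on chromosome III. With K56R on H3X, 4 of the 7 genes were lower than with K56R on H3Y and none was higher (edgeR), where 0.706% of all genes were lower and 2.18% higher. All 7 differences were negative, with a median of -0.61 against 0.00 over all genes.

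MFA1 measured 13.3, 25.5 and 12.8 CPM with K56R on H3X and 39.1, 32.5 and 41.0 CPM with K56R on H3Y. The strains did not overlap, and the log2 difference was -1.14 (SE 0.22, adjusted p = 0.00104, edgeR). For MFA2, values of 107.5, 186.5 and 111.1 CPM stood against 213.2, 220.4 and 181.6 CPM. MFA2 overlapped in 1 library of each strain, at a difference of -0.61 (SE 0.17, adjusted p = 0.0492, edgeR).

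The receptor gene STE2 measured 102.4, 170.0 and 121.1 CPM on H3X and 201.1, 221.1 and 229.0 CPM on H3Y. The strains did not overlap, with a difference of -0.73 (SE 0.14, adjusted p = 0.00098, edgeR). BAR1 measured 185.6, 377.3 and 218.8 CPM against 458.3, 432.7 and 390.1 CPM, again with no overlap and a difference of -0.71 (SE 0.16, adjusted p = 0.00653, edgeR). Replicate 4 of the H3X strain was the highest of its strain for MFA1, MFA2, STE2, BAR1, AGA2 and STE6.

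In the other 5 mutants no member differed between H3X and H3Y, where at most 0.443% of all genes were higher and 0.0202% lower, both for K14R. For K56R, AGA2 (-0.42, adjusted p = 0.368), STE6 (-0.40, adjusted p = 0.393) and AFB1 (-0.13, adjusted p = 0.903) did not pass edgeR's test of H3X against H3Y. Without replicate 4 of the H3X strain, AGA2 passed as well, at -0.71 (adjusted p = 0.0283), and BAR1 moved to -1.07. Same-numbered libraries of the K56R strains deviated together (correlations of 0.141 to 0.434), and with the replicate number as a block MFA1 (-1.15, adjusted p = 0.0053), STE2 (-0.75, adjusted p = 0.000936) and BAR1 (-0.76, adjusted p = 0.0079) passed in edgeR while MFA2 (-0.63, adjusted p = 0.0701) did not.

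The calls of MFA1 and STE2 held in all 23 alternatives run. Many of these left out or summed libraries of the symmetric strain or the pseudo-wild type, which are not in this comparison. Such alternatives bear on it only through what all libraries share, such as the estimated spread and the adjustment. Those of BAR1 and MFA2 were lost with the genes of chromosome III left out (-0.71 and -0.60) and without replicate 3 (-0.51 and -0.46) or replicate 5 (-0.60 and -0.48) of the H3X strain. Leaving out chromosome III genes barely moved the log2 values, from -0.715 to -0.707 for BAR1 and from -0.606 to -0.598 for MFA2. It also changed the set of genes over which p was adjusted. The call of MFA2 was lost in 17 of the 23, including without replicate 3 (-0.58) or 4 (-0.55) of the H3Y strain and without any single library of the symmetric strain or the pseudo-wild type (-0.61 to -0.60). The median log2 ratio of chromosome III was 0.85, 0.81 and 0.88 in replicates 3, 4 and 5 of the H3X strain. It lay between -0.09 and -0.05 in the symmetric K56R strain. The part of chromosome III in the difference between H3X and H3Y was not tested.

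**Figure D3:**
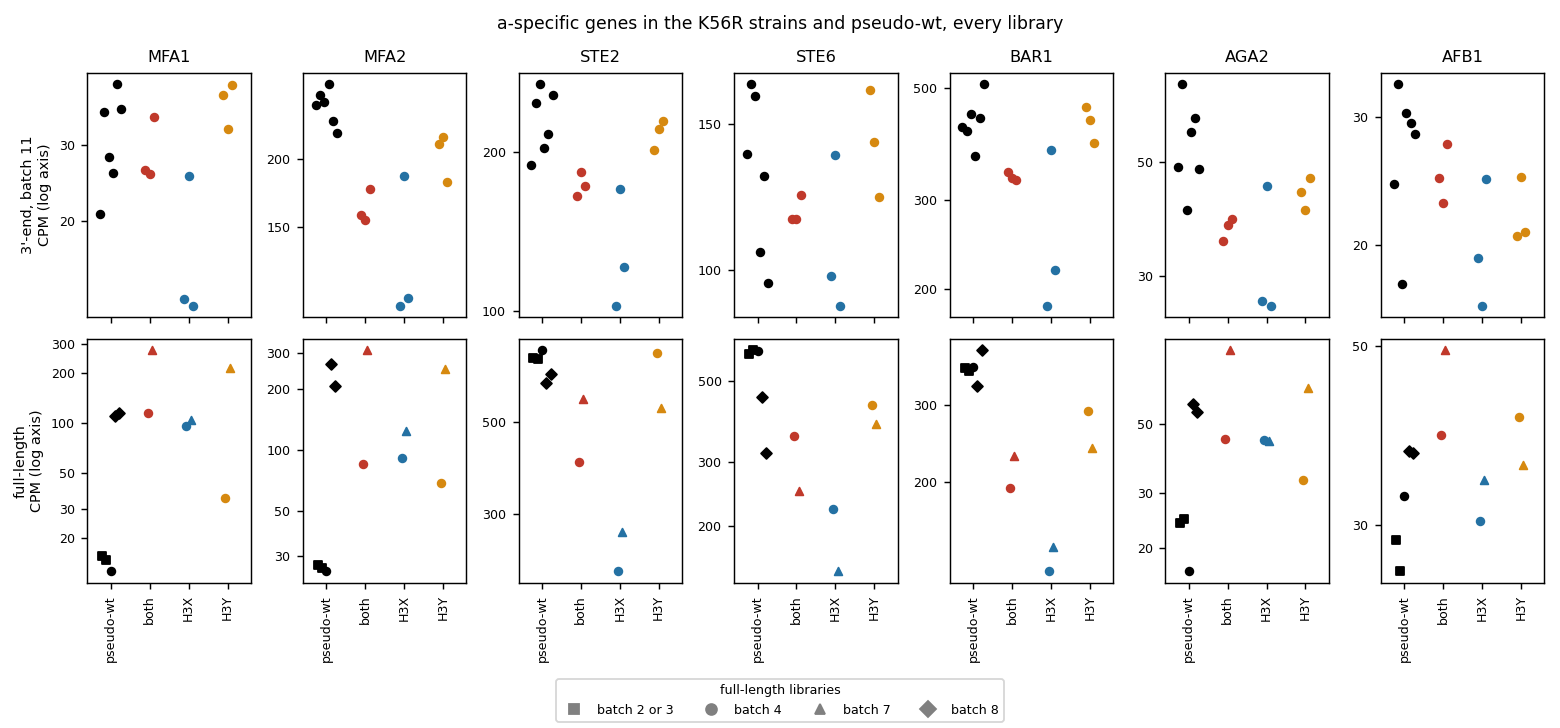
Level in CPM (log axis) of each a-specific gene in every library of the pseudo-wild type and the 3 K56R strains, in the 3′-end assay (top) and the full-length assay (bottom, where marker shapes give the batch). MFA1, STE2 and BAR1 of the H3X strain lie below the H3Y strain in all 3′-end libraries, as STE2 and BAR1 do in all full-length libraries.

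Set against the pseudo-wild type strain by strain, an alternative chosen after seeing the data, K56R on H3X gave 5 lower genes of 7 in the 3′-end assay, where 10.4% of all genes were lower. The log2 values were -0.89 for MFA2, -0.88 for MFA1, -0.81 for STE2, -0.73 for BAR1 and -0.73 for AGA2. With K56R on H3Y no member passed edgeR's test, where 0.464% of all genes were lower, at values from 0.26 for MFA1 to -0.31 for AGA2. These comparisons share their control libraries.

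The full-length assay gave the K56R contrast for STE2 and BAR1, but not for MFA1 and MFA2, from other libraries of these strains. STE2 measured 217.4 and 270.6 CPM with K56R on H3X and 735.2 and 541.4 CPM with K56R on H3Y, in batches 4 and 7. The strains did not overlap, and the log2 difference was -1.40 (SE 0.25, adjusted p = 0.000967, edgeR). BAR1 measured 125.7 and 142.8 CPM on H3X and 289.8 and 238.9 CPM on H3Y, a difference of -0.98 without overlap (SE 0.23, adjusted p = 0.0163, edgeR).

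MFA1, which differed most in the 3′-end assay, measured 95.7 and 104.2 CPM on H3X and 35.1 and 214.6 CPM on H3Y in batches 4 and 7, so H3X was the higher strain in batch 4 and the lower in batch 7. MFA2 measured 90.8 and 124.6 CPM on H3X and 69.0 and 251.6 CPM on H3Y, with the same change of order between batches. Neither passed edgeR's test (log2 0.22, adjusted p = 0.926, for MFA1 and -0.20, adjusted p = 0.922, for MFA2). Over the 8 members 6 log2 differences were negative and 2 positive, with a median of -0.22 against 0.03 over all genes.

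STE2 and BAR1 were the 2 of 8 members that passed, where 0.0784% of all genes were lower. The 5 pseudo-wild-type libraries had 712.1, 711.1, 746.5, 619.2 and 651.3 CPM for STE2 and 363.9, 358.2, 365.4, 330.3 and 399.3 CPM for BAR1, so that all BAR1 values of both strains lay below them, and for STE2 those of H3X and 1 of H3Y. The call of STE2 was lost without replicate 1 of the H3X (-1.28) or the H3Y strain (-1.004). The call of BAR1 was lost without any 1 of its 4 libraries (-0.75 to -1.19) and with the replicate block (-0.96).

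As a mean over both single-copy K56R strains, BAR1 and STE2 each fell by 1.00 on the log2 scale relative to the pseudo-wild type in the full-length assay (adjusted p = 0.00253 and 0.00495, edgeR), where 0.141% of all genes fell. Both calls were lost without replicate 2 of the H3Y strain (-0.88 for BAR1 and -0.80 for STE2) or replicate 3 of the pseudo-wild type (-1.01 and -1.01), and that of STE2 with the pseudo-wild type of batches 2 to 4 reduced to 1 library (-1.14). Taken singly, the H3X strain had BAR1 at -1.49 and STE2 at -1.70, both past the threshold, whereas the H3Y strain, at -0.51 and -0.30, had neither.

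In the symmetric strains, the short members MFA2 and AGA2 fell in the 3′-end assay with K14R and K56R, and MFA1 with K14R only. None of these short members fell in the full-length assay with either mutant. With K14R, MFA1 measured 45.9 and 190.2 CPM, MFA2 101.1 and 345.7 CPM and AGA2 41.2 and 78.6 CPM, at log2 values of 1.41, 1.12 and 0.71 (adjusted p = 0.137, 0.172 and 0.225, edgeR). With K56R, MFA1 measured 114.3 and 277.0 CPM, MFA2 85.4 and 311.0 CPM and AGA2 44.6 and 86.1 CPM, at 2.13, 0.79 and 0.86 (adjusted p = 0.15, 0.665 and 0.434, edgeR). Within the batch shared with the pseudo-wild type, with 1 library each, MFA1, MFA2 and AGA2 stood at 1.55, 1.90 and 0.78 for K14R and at 3.18, 1.76 and 1.41 for K56R.

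These positive values went with flatter length slopes than in the pseudo-wild type of the same batch: 0.458 against 0.712 for K14R and 0.469 against 0.738 for K56R. The part of the length trend in them was not tested. STE2, a longer gene, stood at -0.38 for K14R (adjusted p = 0.202, edgeR) and at -0.72 for K56R (adjusted p = 0.118, edgeR), and AFB1 at 0.08 and 0.18.

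BAR1 was the member called in most mutants of the symmetric strains in the full-length assay. With K36Q it measured 152.1 and 230.5 CPM and fell by 0.91 (SE 0.21, adjusted p = 0.00535, edgeR), where 2.98% of all genes fell. With K14R it measured 248.0 and 238.8 CPM and fell by 0.78 (SE 0.22, adjusted p = 0.0128, edgeR), where 5.69% of all genes fell. With K56R it measured 193.9 and 230.0 CPM and fell by 0.83 (SE 0.21, adjusted p = 0.0264, edgeR), where 0.314% of all genes fell. All 6 of these libraries lay below the lowest of the 5 pseudo-wild-type libraries, 330.3 CPM.

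Within the batch that held both a symmetric strain and the pseudo-wild type, with 1 library each, the log2 ratio of BAR1 was -0.55 for K14R, -1.24 for K36Q and -0.91 for K56R. The BAR1 calls were lost without replicate 2 of the K14R strain (-0.92), without replicate 1 of the K36Q strain (-0.70), and without replicate 1 (-0.73) or 2 (-0.97) of the K56R strain or replicate 2 (-0.80) or 3 (-0.84) of the pseudo-wild type for K56R. With the pseudo-wild type of batches 2 to 4 reduced to 1 library, the calls of K14R (-1.11) and K56R (-1.05) were lost as well, and with the length slope as a covariate that of K14R (-0.75).

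STE6 fell in the same assay with K14R, at 338.8 and 53.4 CPM, and with K36Q, at 214.6 and 85.8 CPM. The pseudo-wild-type libraries measured 593.6, 610.2, 604.8, 453.9 and 317.9 CPM, so K36Q did not overlap and K14R did. The log2 values were -1.49 (SE 0.46, adjusted p = 0.022, edgeR) and -1.79 (SE 0.45, adjusted p = 0.0121, edgeR). STE6 is the longest of the 8 features, and the low library of each strain also had the lower slope of log2 CPM on log2 length: -0.152 against 0.458 for K14R and 0.038 against 0.448 for K36Q.

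With that slope as a covariate neither STE6 call held (-0.68 and -1.15). The K14R value rested on which library was kept: without replicate 2 it was -0.74 and no longer called, and without replicate 1 it was -2.75. The calls were also lost without replicate 1 (-2.04) or 2 (-1.53) of K36Q, and, for K14R, without replicate 1 (-1.52) or 3 (-1.39) of the pseudo-wild type. The reduced pseudo-wild type ended both (-1.36 for K14R and -1.70 for K36Q).

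A further STE6 call compared K37Q on H3X, at 144.9 and 160.7 CPM, with K37Q on H3Y, at 648.4 and 400.6 CPM. The strains did not overlap, and the log2 difference was -1.71 (SE 0.48, adjusted p = 0.0266, edgeR), where 8.16% of all genes were lower. The slopes of these libraries were 0.487 and -0.206 on H3X and 0.771 and 0.232 on H3Y. The call was lost with the slope as a covariate (-0.74) and without any 1 of the 4 libraries (-1.47 to -2.02).

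In the 3′-end assay, AGA2 and AFB1 fell with a single K14R copy, taken as the mean of the H3X and H3Y strains, where 11.6% of all genes fell and 17.4% rose. AGA2 measured 34.8, 42.7 and 37.6 CPM on H3X and 37.2, 36.2 and 33.6 CPM on H3Y, against 40.2 to 70.8 CPM in the controls, with 1 overlapping library. It fell by 0.54 (SE 0.13, adjusted p = 0.00473, edgeR). AFB1 measured 14.8, 16.9 and 17.4 CPM on H3X and 15.1, 17.1 and 22.1 CPM on H3Y, against 17.7 to 33.2 CPM, with 1 overlapping library as well.

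AFB1 fell by 0.64 (SE 0.15, adjusted p = 0.0042, edgeR). MFA2 missed the threshold at -0.31 (adjusted p = 0.0531), and the other 4 genes did not pass either. Both K14R calls were lost with the length slope as a covariate (-0.35 for AGA2 and -0.37 for AFB1).

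The mean of the single-copy K56R strains was lower than the pseudo-wild type for MFA2 (-0.59, SE 0.12, adjusted p = 0.00132, edgeR), STE2 (-0.45, SE 0.10, adjusted p = 0.00255), AGA2 (-0.52, SE 0.13, adjusted p = 0.00693) and BAR1 (-0.37, SE 0.11, adjusted p = 0.0212). That was 4 of 7 genes, where 10.2% of all genes fell. As the strain-by-strain values above show, this mean pools an H3X strain with 5 lower members and an H3Y strain with none. The call of BAR1 was lost without replicate 3 (-0.28) or 5 (-0.33) of the H3X strain or replicate 19 of the pseudo-wild type (-0.32), and its value was -0.56 without replicate 4 of the H3X strain.

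The mean of the single-copy K37Q strains was the one comparison in which members rose: MFA2, AGA2 and AFB1, 3 of 7, where 19.9% of all genes rose and 21.6% fell. MFA2 measured 327.0, 207.9 and 282.5 CPM on H3X and 299.8, 257.1 and 218.1 CPM on H3Y, against 125.3, 184.6 and 225.1 CPM (lowest, median and highest) in the 6 controls of batch 10. It rose by 0.55 (SE 0.14, adjusted p = 0.00327, edgeR), with overlap.

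AGA2 measured 70.3, 55.8 and 59.9 CPM on H3X and 55.8, 51.2 and 53.0 CPM on H3Y, against 26.9, 44.4 and 60.8 CPM in the controls. AFB1 measured 92.7, 56.9 and 66.4 CPM on H3X and 59.3, 91.2 and 67.9 CPM on H3Y, against 30.6, 43.8 and 82.3 CPM. Both overlapped the range of the controls, and AGA2 rose by 0.37 (SE 0.15, adjusted p = 0.0409, edgeR) and AFB1 by 0.56 (SE 0.18, adjusted p = 0.0146, edgeR).

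All 3 K37Q calls were lost with the length slope as a covariate, at log2 values of 0.05 for MFA2, 0.02 for AGA2 and 0.19 for AFB1. The slope was -0.499 ± 0.205 on H3X and -0.436 ± 0.043 on H3Y (n = 3 each) against -0.213 ± 0.090 in the controls (n = 6). AFB1 was also lost without replicate 3 of the H3X strain (0.47) or replicate 4 of the H3Y strain (0.46), and AGA2 in 12 of 22 alternatives.

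No member of the 3′-end assay differed between a symmetric strain and the mean of its single-copy strains in any of the 6 mutants (0 of 42 tests with edgeR, 9 at an unadjusted p under 0.05, 1 with DESeq2). The share of all genes that was lower was 0.0403% for K14R, 0.988% for K56R (1.19% higher) and 0.0% for the other 4. All 7 log2 differences were nevertheless negative for K14R (median -0.39), K36Q (median -0.42) and R2K (median -0.33). For K14R, AGA2 stood at -0.55, BAR1 at -0.46 and STE2 at -0.41. For K36Q, BAR1 stood at -0.55 (adjusted p = 0.234, edgeR), which DESeq2 called (-0.56, adjusted p = 0.0435).

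K36Q on both copies gave no call against the pseudo-wild type, as for all of its 4984 genes (0.0%), although all 7 log2 values were negative, with a median of -0.41. Its libraries were uneven: BAR1 measured 295.1, 191.6 and 189.2 CPM, MFA2 180.7, 103.4 and 99.1 CPM, and AGA2 40.2, 24.1 and 21.6 CPM, each highest in replicate 3. Without that replicate BAR1 (-0.74, adjusted p = 0.00277), AGA2 (-0.95, adjusted p = 0.049) and MFA2 (-0.83, adjusted p = 0.049) passed edgeR's test. The share of all genes called without that replicate is not given here, so these calls cannot be set against a background. In the full-length assay BAR1 and STE6 fell in this strain, as described above, while 5 of its 8 log2 values were positive and the median was 0.31.

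The symmetric K18R, K37Q and R2K strains had no member called in the 3′-end assay, where 1.25% of all genes rose and 0.564% fell for K18R, 0.0602% and 0.0401% for K37Q, and 0.0% and 0.0% for R2K. For K37Q, AFB1 stood at 0.52, AGA2 at 0.45 and MFA2 at 0.43. For K18R, MFA2 stood at 0.44 (adjusted p = 0.119, edgeR).

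In the full-length assay, calls of members against the pseudo-wild type were limited to K14R, K36Q and K56R, with 5 of 104 tests in symmetric strains and 2 of 144 in single-copy means (30 and 32 at an unadjusted p under 0.05). DESeq2 called 13 and 5. The shares of all genes that DESeq2 called are not given here, so its added calls cannot be set against a background. Those it added were MFA1 (1.99), ASG7 (1.10) and STE2 (-0.60) with K36Q on both copies, ASG7 (1.502) with K56R on both, MFA1 (1.83), MFA2 (1.44), AGA2 (1.34) and STE6 (-1.12) with S10A on both, and MFA1 (1.89), MFA2 (1.54) and AGA2 (1.15) with single-copy S10A. A symmetric strain against its single-copy mean gave 0 of 104 (5 unadjusted, 0 with DESeq2), and K56Q against the mean of K4A and K4Q, which share batch 9 and have no pseudo-wild type there, gave 0 of 8 (1 unadjusted, 0 with DESeq2). Between the tail deletion delta4-20 on H3X and on H3Y, with 1 library each, all 8 log2 differences were negative, with BAR1 at -1.30 (adjusted p = 0.0521, edgeR) and STE2 at -1.35 (adjusted p = 0.0603, edgeR). Simulated 2-fold changes were recovered for 31.7% of genes in the full-length K56R symmetric comparison and for 97.0% in its 3′-end counterpart, so the full-length assay is the less sensitive.

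The pheromone genes, the shortest members, varied most between full-length libraries, although length did not order the others. MFA1, a feature of 112 bases, ranged from 5.39 to 311.0 CPM, a ratio of 57.8, and MFA2, of 118 bases, had a ratio of 24.6. The low-count ASG7, of 631 bases, had a ratio of 19.6, AGA2, of 265 bases, one of 15.0, STE6, the longest at 3874 bases, one of 12.3 and AFB1, of 676 bases, one of 7.59, whereas BAR1 and STE2, of 1765 and 1297 bases, had ratios of 4.57 and 4.88. The pseudo-wild type itself had 12.6 to 15.7 CPM of MFA1 in batches 2 to 4 and 109.8 and 114.4 CPM in batch 8, where its length slope was 0.707 to 0.738 and 0.340 and 0.291.

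An MFA1 difference of 4.82 on the log2 scale between K4A on H3X (152.9 CPM) and on H3Y (5.39 CPM), 1 library each, not past the threshold in edgeR but called by DESeq2 (4.84, adjusted p = 0.0327), went with slopes of 0.521 and 0.802. ASG7, the least abundant member, had 1 to 292 counts per library and ranged from 1.05 to 20.6 CPM. Its highest library, 20.6 CPM, belonged to the K56R symmetric strain, whose other library measured 8.67 CPM, and the log2 value of 1.49 did not pass (adjusted p = 0.0598, edgeR).

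**Figure D4:**
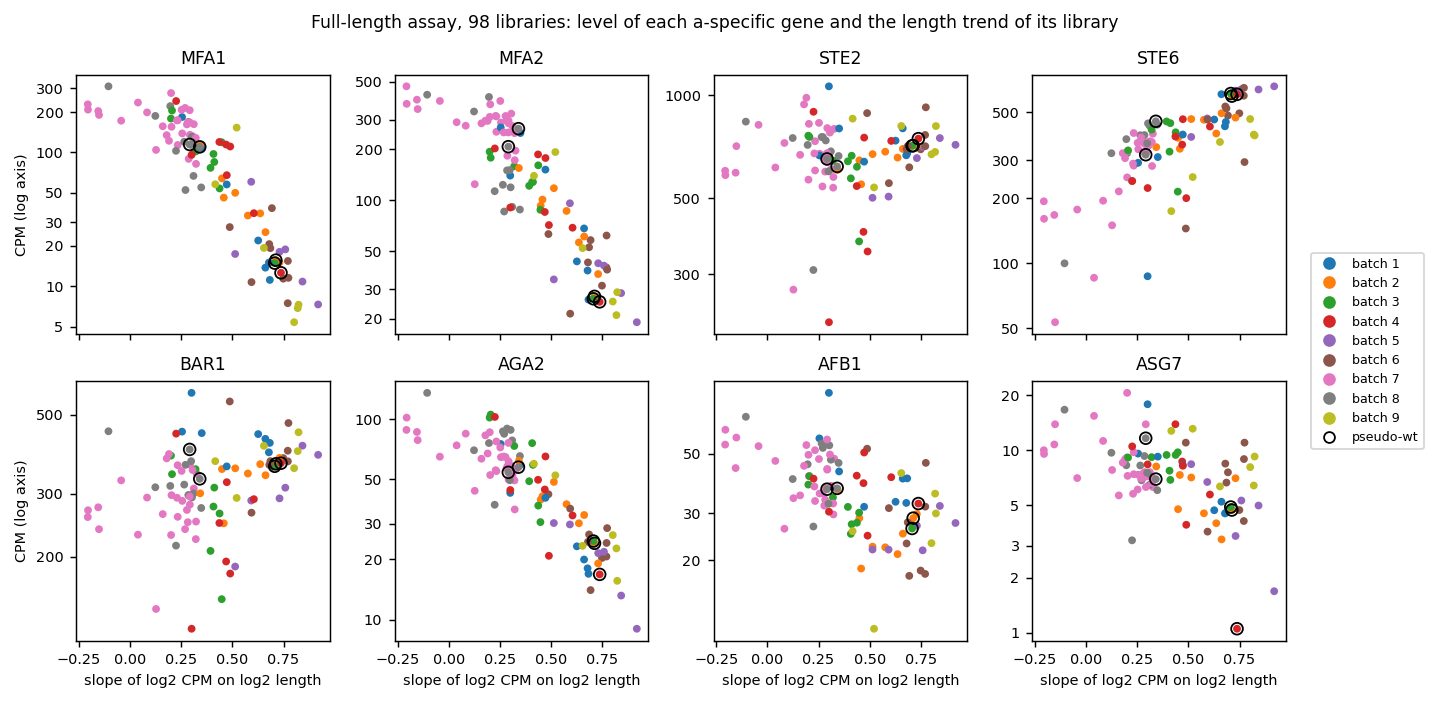
Level in CPM (log axis) of each a-specific gene in the 98 full-length libraries against the library's slope of log2 CPM on log2 feature length; colours give the batch and circles mark the pseudo-wild type. MFA1, MFA2 and AGA2 are lower in libraries with a steeper slope, and MFA1 spans 5.39 to 311.0 CPM.

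The mating type of the strains was checked with alpha-specific genes and the cassettes, since the operator keeps a-specific genes off wherever alpha2 is made. The alpha-factor genes were near 0 in every 3′-end library, with at most 4.97 CPM (17 counts at most) for MF(ALPHA)1 and 2.81 CPM for MF(ALPHA)2, and reached 14.1 and 7.25 CPM in the full-length assay. STE3, the a-factor receptor of alpha cells, had 19.8 to 82.3 CPM in the 3′-end assay, and SAG1, the alpha-agglutinin, 38.2 to 139.3 CPM. Counts of HMLALPHA1 and MATALPHA1 check nothing here, since these copies are identical over all 528 bases and reads were counted at a mapping quality of at least 30, which removes reads that fit both.

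Fewer cells of a mating type and less RNA per cell cannot be told apart in such bulk libraries. STE3 fell together with the a-specific genes in the K14R symmetric strain, by 0.68 in the 3′-end assay (SE 0.17, adjusted p = 0.00328, edgeR) and by 0.92 in the full-length assay (adjusted p = 0.0324, edgeR). MF(ALPHA)1 rose in the symmetric strains of K14R (4.32 and 10.2 CPM, log2 1.81, adjusted p = 0.0217, edgeR) and K56R (4.13 and 14.1 CPM, log2 2.23, adjusted p = 0.018, edgeR) in the full-length assay, where the pseudo-wild type had 0.522 to 3.88 CPM. The higher library of each strain was of batch 7, which has no pseudo-wild type, with length slopes of -0.152 (K14R) and 0.200 (K56R). The part of the length trend in this rise was not tested. In the 3′-end assay MF(ALPHA)1 had means of 1.59 ± 0.27 CPM (SD) in the K14R symmetric strain, 3.19 ± 2.44 in that of K56R and 1.67 ± 0.57 in their controls. SAG1 rose with single-copy K37Q in the 3′-end assay (0.42, adjusted p = 0.00313, edgeR). The summed level of the 4 alpha-specific genes was 70.8 to 92.6 CPM in the K14R symmetric strain and 80.1 to 120.0 CPM in its controls, and 91.9 to 98.7 CPM with K56R on H3X against 92.4 to 101.8 CPM on H3Y.

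The cassette genes HMLALPHA2, MATALPHA2 and HMRA2 are part of chromosome III and share sequence, so their reads cannot be assigned with certainty. They were highest in the first K56R library on H3X, at 15.8, 16.7 and 13.3 CPM. None of them differed between H3X and H3Y by edgeR's test: HMLALPHA2 stood at 0.64 (adjusted p = 0.588), MATALPHA2 at 0.84 (0.507), HMRA2 at 0.99 (0.483) and HMRA1 at 1.22 (0.523).

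Other genes of the mating pathway did not move as one with the a-specific genes in the 3′-end assay. With K14R on both copies, 1 of the 7 genes that process and export a-factor rose and 1 fell: STE23, an a-factor protease, at 0.48 (adjusted p = 0.00366, edgeR), and RAM2, the shared subunit of the prenyltransferase, at -0.60 (adjusted p = 0.00287, edgeR). Of 11 tested pheromone-induced genes 3 rose and 1 fell, with the kinesin gene KAR3 at 1.24 (adjusted p = 0.000296, edgeR) and AGA1, which anchors Aga2 to the cell wall, at -0.46 (adjusted p = 0.00367, edgeR). Of 12 transcription and silencing regulators 3 rose and 2 fell, led by the silencing genes SIR3 (1.20, adjusted p = 0.000296, edgeR) and SIR4 (1.14, adjusted p = 0.000383, edgeR). Of 7 tested haploid-specific and signalling genes 1 rose and none fell, beside background shares of 20.4% higher and 15.8% lower. KAR3, SIR3 and SIR4 have long features (2505, 3225 and 4393 bases), and the length slope of this strain differed from its controls as given above. The part of the length trend in their values was not tested.

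With K56R on both copies, 1 of these 7 signalling genes rose (STE11, a kinase, 0.39, adjusted p = 0.0298, edgeR) and 1 fell (STE4, the G protein beta subunit, -0.27, adjusted p = 0.00546, edgeR). Of the a-factor processing genes 1 of 7 fell, of the pheromone-induced genes 2 of 11 rose and 2 fell, and of the regulators 2 of 12 rose, beside 10.5% of all genes lower and 13.4% higher. Between K56R on H3X and on H3Y, the genes STE50 (0.83), KAR4 (0.76), FIG2 (0.77) and TUP1 (0.94) were higher on H3X by edgeR's test. All 4 are on chromosome III, whose median in these libraries is given above, and TUP1 encodes the corepressor named above. They were 1 of the 7 signalling genes, 2 of the 11 pheromone-induced genes, of which 2 others were lower, and 1 of the 12 regulators, beside 2.18% of all genes higher and 0.706% lower.

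In the single-copy means, where members rose with K37Q, GPA1, the G protein alpha subunit, was 1 of 3 signalling genes of 7 that fell (-0.67, adjusted p = 0.00117, edgeR). Of the processing genes 2 rose and 1 fell with K37Q, among them the methyltransferase gene STE14 (0.59, adjusted p = 0.000642, edgeR) and STE23 (-0.51, adjusted p = 0.000208, edgeR), and of the regulators 2 rose and 4 fell, with SIR4 at -0.81 (adjusted p = 0.00123, edgeR), beside 19.9% of all genes higher and 21.6% lower. With single-copy K14R, 2 processing genes rose and 1 fell, 3 pheromone-induced genes rose, and 3 regulators rose and 1 fell, with SIR3 at 0.96 (adjusted p = 0.00146, edgeR), beside 17.4% of all genes higher and 11.6% lower. Length slopes also differed from the controls in the single-copy K37Q and K14R strains, and their part in the SIR3 and SIR4 values was not tested.

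Over the 18 mutant strains of the 3′-end assay, AGA2, MFA2, STE2, BAR1 and MFA1 followed the mean of the other members, with Pearson correlations of strain means of 0.887, 0.886, 0.882, 0.837 and 0.819. AFB1 (0.585) and STE6 (0.291) did so less. The closest pair was STE2 and BAR1 (0.940). Among 4878 other genes with a mean of at least 5 CPM, those most like the mean of the members were YHM2 (0.921), MAE1 (0.864), RPL23A (0.859), FSH1 (0.856) and ZRT2 (0.847). These are descriptions without a test, since the strains came in batches and the length slopes varied between their libraries.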

How the data were processed

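Gene counts were used as deposited. The authors aligned reads with TopHat2 2.0.12 and Bowtie2 to sacCer3, per the submitters' processing notes, and counted full-length read pairs on the reverse strand without duplicates and 3′-end reads on the same strand with duplicates kept, both with featureCounts 1.4.6-p2 at a mapping quality of at least 30, per the file headers. No per-sample column was left unused (0). Library totals had medians of 4142050 (batch 10), 2658795 (batch 11) and 5094397 (full-length), and their number limits the precision of low genes such as ASG7.

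Counts were tested with edgeR 4.0.16 in R 4.3.3 (quasi-likelihood, TMM, filterByExpr), each 3′-end batch alone (4984 and 4961 genes) and all full-length libraries together with batch as a term (6376 genes), with Benjamini-Hochberg adjustment within each comparison at 0.05. Libraries of strains with 1 library were assumed to vary like the others. Alternatives were DESeq2 1.42.0, other size factors, no filter on low counts, a length-slope covariate (slope over genes of at least 20 CPM), a replicate block, reduced pseudo-wild-type libraries and leaving out each library. On simulated counts with 200 genes changed 2-fold, the 3′-end K56R symmetric comparison recovered 194 with 8 false calls, and the full-length one 63 of the 199 tested with 6.

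The members and lists were chosen with earlier results of these data known. All members are named; of other lists, the alpha-specific and cassette genes and at most 2 genes per list and kind of comparison with the smallest adjusted p are named, and the 5 genes most like the members. Same-numbered libraries deviated together (every correlation over 0.1) in 2 of 18 strain pairs: K56R on H3X and H3Y (0.141 to 0.434), and K36Q on H3X and both copies (0.124 to 0.319). Sequences were read from the RefSeq R64 genome, in which 5981 of 6008 matched features had the same coordinates as the deposited files.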

Additional observations from a re-analysis of the deposited data

Results flagged for a closer look

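Members whose level differed between the strain mutated on H3X and the strain mutated on H3Y, by edgeR's quasi-likelihood test of that difference, are listed here. For K56R in the 3′-end assay the log2 differences, H3X minus H3Y, were -1.14 for MFA1, -0.73 for STE2, -0.71 for BAR1 and -0.61 for MFA2. For K56R in the full-length assay they were -0.98 for BAR1 and -1.40 for STE2, so STE2 and BAR1 passed in both assays. For K37Q in the full-length assay STE6 differed by -1.71, with library slopes that differed alongside it. All K56R H3X libraries carried the chromosome III shift given above, and its part in these K56R differences was not tested. No library stood apart from its group for a member in any of 14 tests of groups with 4 to 10 libraries. These tests covered only the pseudo-wild-type groups of the 3′-end assay, and no mutant strain was tested for this.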

How the results depend on the processing

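No call of a member reversed its direction. Over the 32 called results, 577 of 665 settings kept the call, 85 lost it and 3, ratios within 1 batch without a test, moved beyond the spread. Some of these settings left out or summed libraries outside the comparison at hand, so the share kept is no measure of stability. In the 3′-end assay the 9 calls of single-copy means became 4 with the length slope as a covariate and 4 with the H3Y strain alone, the 0 calls of symmetric against single-copy strains became 1 with DESeq2 and 1 with the slope, and the 4 calls of H3X against H3Y became 2 without chromosome III genes, an alternative chosen after seeing the data, as was the H3Y strain alone. In the full-length assay the 5 symmetric calls became 13 with DESeq2, 3 with the slope and 1 with the pseudo-wild type of batches 2 to 4 reduced to 1, and the 2 single-copy calls became 5 with DESeq2, 1 with the reduced pseudo-wild type and 5 with the replicate block. The 0 calls of symmetric against single-copy strains became 1 with the slope. The 3′-end calls lost without chromosome III genes barely moved in log2 value, as given above. Shares of all genes called in these alternatives are not given here, so the counts cannot be set against a background.

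Leaving out 1 library at a time, the 3′-end counts ranged from 7 to 12 (symmetric), 7 to 11 (single-copy mean), 0 to 4 (symmetric against single-copy) and 2 to 5 (H3X against H3Y), and the full-length counts from 3 to 6, 0 to 3, 0 to 2 and 1 to 3. Full-length leave-outs were run for the pseudo-wild type, K14R, K36Q, K37Q and K56R, with the trended dispersion held; those of other strains were not run. With the replicate number as a block, the counts were 9, 8, 0 and 3 in the 3′-end assay and 6, 5, 0 and 2 in the full-length assay. The block ended the calls of MFA2 (K56R, H3X against H3Y, 3′-end), AGA2 (K37Q, single-copy mean, 3′-end, 0.37) and BAR1 (K56R, full-length, symmetric strain and H3X against H3Y). Only 8 of 54 pairs of same-numbered 3′-end libraries had a correlation over 0.1.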
